A study of Mus musculus with 28 samples.

Results

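The genes of oxidative phosphorylation were followed through whole-liver RNA sequencing of 28 mice. Members were all genes whose symbol begins with mt-Nd, mt-Co, mt-Atp or mt-Cytb, with Nduf followed by a, b, c, s or v, with Uqcr, with Cox4 to Cox8 or with Atp5, together with Sdha, Sdhb, Sdhc and Sdhd, leaving out pseudogene symbols ending in -ps. Of 32544 genes in the tables, 105 symbols matched and 99 had a mean of at least 1 CPM, a count scaled to the size of its library, over all 28 libraries. The 99 were 13 genes of the mitochondrial genome and 86 genes of the nuclear genome, and all of them passed the filter on low counts in both sexes. The 6 left out were Cox4i2, Cox6a2, Cox6b2, Cox7b2, Cox8b and Cox8c, with means between 0 and 0.454 CPM. Closest above the minimum stood Ndufa4l2 at 1.39 CPM and Cox7a1 at 1.71 CPM.

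All animals were C57BL/6 mice, 13 weeks old by the labels, with 1 liver library each. Floxed controls (CT) were compared with mice lacking c-Myc in endothelial cells (KO), c-Myc being a transcription factor that drives growth genes. Both genotypes received tamoxifen, the drug that switches on the inducible Cre recombinase, at 5 weeks of age. After 2 weeks they were put for 5 weeks on a low-fat control diet (CTD) or on a diet rich in fat and cholesterol (HFC), steps that add to 1 week less than the stated age. Each combination of genotype and diet had 4 males and 3 females, and the sexes were deposited and analysed as separate tables. The promoter that drives Cre is not given in the labels. The series asks what endothelial c-Myc does in a liver under such a diet, and the members were compared between diets, between genotypes and between the 2 genomes.

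Oxidative phosphorylation makes most of the ATP of a hepatocyte. Complexes I and II take electrons from NADH and succinate, complex III passes them to cytochrome c, complex IV passes them to oxygen, and complex V, the ATP synthase, uses the proton gradient that complexes I, III and IV build. Complex II is built from nuclear genes alone, whereas the other complexes combine subunits translated inside the mitochondrion with subunits made in the cytosol and imported. The mitochondrial genes are read from both strands of a small circular genome as long precursors that are then cut into single messages, and the nuclear genes have promoters of their own.

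Several mitochondrial genes share bases, which limits how far counts of neighbours are separate measurements. In GRCm38 the end of mt-Atp8 (chrM:7766-7969, plus strand) and the start of mt-Atp6 share 43 bases, and the end of mt-Nd4l and the start of mt-Nd4 share 7 bases. The coding sequence of mt-Atp8 and the last 60 bases of mt-Nd4l (chrM:10114-10173, plus strand) are shown because reads over the shared bases, in capitals, could have been counted for either gene. A single base is shared by mt-Atp6 and mt-Co3, and 14 bases are shared by mt-Nd5 and mt-Nd6 on opposite strands.
mt-Atp8: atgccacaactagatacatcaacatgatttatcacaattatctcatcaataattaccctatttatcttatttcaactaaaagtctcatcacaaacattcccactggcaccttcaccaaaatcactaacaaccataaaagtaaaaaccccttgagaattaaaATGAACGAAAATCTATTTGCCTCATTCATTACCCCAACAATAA
mt-Nd4l last 60 bases: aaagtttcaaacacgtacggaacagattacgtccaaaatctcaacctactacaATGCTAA

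Promoters of the nuclear members were read from RefSeq's GRCm38.p6 as windows of 300 bases, 250 before the start of the gene and 50 after it. Such a window was found for 73 of the 86 nuclear members. Motifs were searched on both strands. A gene counted once, if any of its windows held the motif. The NRF1 motif (GCGC, any base, then TGCGC) is named for a regulator of respiratory chain genes. It was in 19 of the 73 members (26.0%) and in 5.19% of all 27025 genes with a window. The ETS motif CCGGAAG was in 17 (23.3% against 9.93%), the YY1 motif AAGATGGC in 11 (15.1% against 3.19%), and the E-box CACGTG, the site class that Myc recognises, in 7 (9.59% against 8.09%). An ETS and a YY1 match can overlap, since the last 3 letters of one are the first 3 of the other. At least 1 of the first 3 motifs was in 41 members (56.2%), against 16.4% of all genes with a window. The windows of the members were also richer in G and C, with a median of 58.7% against 52.7%. A match of letters is a description and shows no binding.

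The 4 promoters printed belong to nuclear members whose diet differences are given below: Sdhb (chr4:140961021-140961320, plus strand), Sdhd (chr9:50603800-50604099, minus strand), Uqcrc1 (chr9:108936398-108936697, plus strand) and Atp5o (chr16:91931581-91931880, minus strand). Capitals mark the NRF1 motif in Uqcrc1 and Atp5o, the ETS motif in Sdhb, and both motifs in Sdhd, where each reads on the strand opposite to the one printed.
Sdhb: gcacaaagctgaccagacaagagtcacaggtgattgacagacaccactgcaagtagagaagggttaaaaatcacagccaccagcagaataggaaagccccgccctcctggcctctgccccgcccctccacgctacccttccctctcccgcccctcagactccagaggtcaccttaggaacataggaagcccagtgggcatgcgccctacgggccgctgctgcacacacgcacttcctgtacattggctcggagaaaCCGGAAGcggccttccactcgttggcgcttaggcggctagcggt
Sdhd: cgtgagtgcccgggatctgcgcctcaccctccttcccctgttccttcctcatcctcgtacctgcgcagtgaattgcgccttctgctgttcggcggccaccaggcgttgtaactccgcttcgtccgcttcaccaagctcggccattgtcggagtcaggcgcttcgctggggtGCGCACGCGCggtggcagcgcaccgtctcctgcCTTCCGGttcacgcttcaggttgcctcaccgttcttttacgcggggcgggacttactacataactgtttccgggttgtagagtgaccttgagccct
Uqcrc1: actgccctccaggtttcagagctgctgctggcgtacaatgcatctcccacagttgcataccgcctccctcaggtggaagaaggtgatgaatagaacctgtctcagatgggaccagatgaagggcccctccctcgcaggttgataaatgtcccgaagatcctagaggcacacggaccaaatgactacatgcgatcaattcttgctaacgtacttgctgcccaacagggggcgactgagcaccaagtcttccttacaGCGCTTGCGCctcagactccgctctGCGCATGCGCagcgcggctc
Atp5o: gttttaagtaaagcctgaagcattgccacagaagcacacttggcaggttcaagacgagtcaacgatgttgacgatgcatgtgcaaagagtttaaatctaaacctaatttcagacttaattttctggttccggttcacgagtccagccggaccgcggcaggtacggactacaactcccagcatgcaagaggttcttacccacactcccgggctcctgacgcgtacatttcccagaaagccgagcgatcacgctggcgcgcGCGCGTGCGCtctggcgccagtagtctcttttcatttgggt

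The libraries held 22154774 to 22652285 counts in males and 18741939 to 19195502 in females. The normalisation factors (TMM, which corrects library totals for a shift in composition) were 0.842 to 0.999 in CTD mice and 1.0001 to 1.19 in HFC mice, with no overlap. The numbering of CTD mice does not run into that of HFC mice, and the labels do not say what the numbers stand for. Any cohort that follows the numbering could not be told apart from diet. Whole-liver Myc was 4.73 to 7.80 CPM in male CT mice on CTD and 3.09 to 20.1 CPM in male KO mice on CTD, a level over all liver cells that does not check deletion in the endothelium. In whole liver, fewer cells of a type and less RNA per cell cannot be told apart.

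Per kilobase of exon, the mitochondrial messages stood far above the nuclear ones. The length used was that of all annotated exons of a gene merged, which can exceed the length of a single message. It was 4.237 kb for Atp5b and 0.619 kb for Cox8a, so the order among nuclear members depends on this measure. On the deposited CPM per kilobase, mt-Atp6 had the highest level of the 13 (21164), followed by mt-Co1 (17424), mt-Co3 (14161) and mt-Cytb (10412), and mt-Nd5 had the lowest (3315). Among nuclear members, Cox8a and Cox6a1, subunits of complex IV, had 254 and 249 on the same scale, and Atp5a1 and Atp5b, the catalytic-head subunits of ATP synthase, had 209 and 200. At the lower end were Cox7a1 at 3.20, the muscle form of its subunit, Ndufaf5 at 1.59, a complex I assembly factor, and Ndufa4l2 at 1.27, a hypoxia-induced relative of Ndufa4. Cox8a and Cox6a1 were chosen for this order after their values were seen.

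Together the 13 mitochondrial messages took 8.69% to 14.03% of all counts in a liver, and the 86 nuclear members 0.702% to 1.07%. In male CT mice the mitochondrial share was 12.2, 12.3, 12.1 and 10.9% on CTD and 11.5, 10.4, 10.5 and 10.4% on HFC. The male KO values were 11.9, 11.9, 12.5 and 12.8% on CTD and 11.4, 11.0, 10.5 and 10.3% on HFC. The lowest male value on CTD, that of CT animal 320, lay within the HFC values of male CT mice, whereas the male KO groups did not overlap.

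In female CT mice the mitochondrial share was 13.5, 11.8 and 14.03% on CTD and 8.69, 9.26 and 11.5% on HFC. The female KO values were 11.5, 10.7 and 12.9% and 11.0, 9.09 and 10.3%. The female CT groups did not overlap, and the female KO groups did. The share of the nuclear members moved less: in male CT mice it was 0.798% ± 0.0890 (SD, n = 4) on CTD and 0.745% ± 0.0200 on HFC, and in female KO mice it was 0.909% ± 0.0921 (SD, n = 3) on CTD and 0.948% ± 0.0564 on HFC.

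The ratio of mitochondrial to nuclear counts, which needs no scaling between libraries, separated the diets in 1 of 4 comparisons. On the log2 scale it was 3.54, 3.72 and 3.81 in female KO mice on CTD and 3.44, 3.32 and 3.49 on HFC, with no overlap. In female CT mice it was 3.66, 3.47 and 3.87 on CTD and 3.33, 3.35 and 3.49 on HFC, where 1 CTD mouse lay just below the highest HFC mouse. In males the means were 3.90 ± 0.23 and 3.85 ± 0.08 in CT mice and 3.98 ± 0.09 and 3.85 ± 0.12 in KO mice (SD, n = 4), and both pairs overlapped. The mean difference between HFC and CTD was -0.05 in male CT mice, -0.13 in male KO mice, -0.28 in female CT mice and -0.28 in female KO mice. Leaving out CT CTD animal 320, the male CT difference became -0.16, and without CT CTD animal 313 it was 0.02. The female CT difference was -0.38 without CT CTD animal 308 and -0.18 without CT CTD animal 318.

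**Figure D1:**
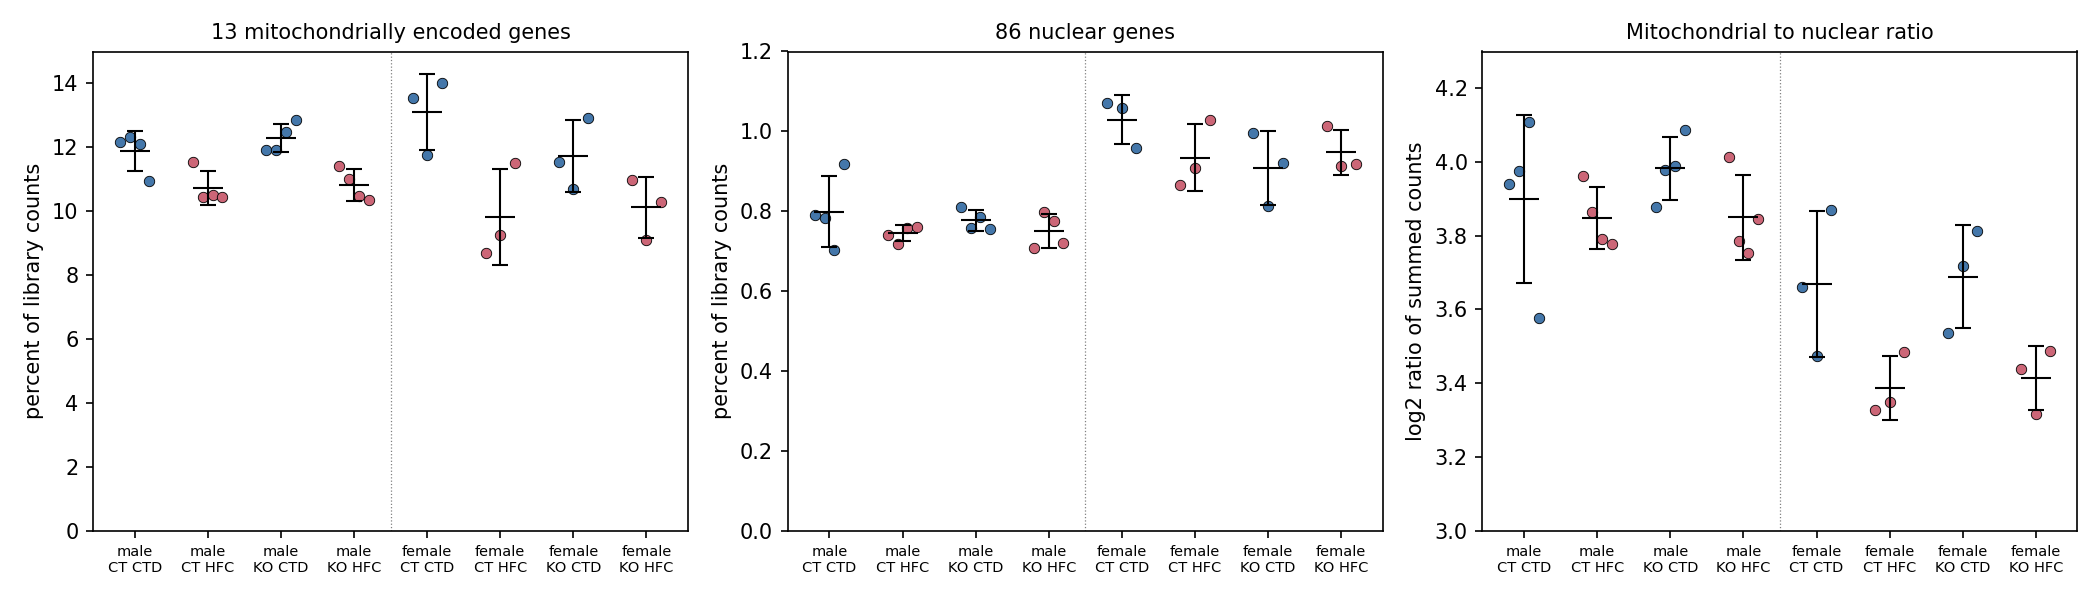
Share of all library counts taken by the 13 mitochondrial members (left, percent), by the 86 nuclear members (middle, percent), and the log2 ratio of the 2 sums (right, axis not starting at 0) in each of the 8 groups. Dots are animals, bars are the mean with the SD, blue is CTD and red is HFC. The mitochondrial share of female CT mice averaged 13.1% on CTD and 9.82% on HFC, while their nuclear share averaged 1.03% and 0.934%.

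Relative to the bulk of genes, most nuclear members were lower on HFC in males of both genotypes. In male CT mice, 55 of 86 nuclear members fell and 0 rose (edgeR's quasi-likelihood test, Benjamini-Hochberg adjusted p under 0.05 over 14078 genes), while among all tested genes 9.4% fell and 10.6% rose. Among KO males 61 fell and 1 rose, against 13.6% and 15.5% of all genes. In the same livers 11 of 12 macrophage markers rose in CT and all 12 in KO males, and 3 and 6 of 12 hepatocyte markers fell. The median log2 fold change of the nuclear members was -0.29 in both genotypes, and that of all tested genes was -0.01 in CT and -0.02 in KO males. Of the 66 members of either genome that fell in male CT mice and the 72 in male KO mice, 62 were the same, 93.9% of the first and 86.1% of the second. The same overlap over all tested genes was not taken. The CT and KO contrasts share no animals but share 1 estimate of spread.

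These calls rest on the scaling. With TMM, levels are relative to the bulk of genes. When library totals were used in place of TMM factors, the median of all genes became 0.22 in CT and 0.26 in KO males, and 13 and 7 members fell, while 1 and 2 rose. The shares of all genes called with library totals are not given here, and the shares above belong to the TMM fit. In CT males those lower were mt-Nd3, mt-Nd4l, mt-Nd5, mt-Nd6, Atp5k, Atp5o, Cox5b, Cox6c, Cox7b, Ndufs1, Ndufv2, Sdhb and Sdhd. In KO males they were mt-Cytb, mt-Nd3, mt-Nd4, mt-Nd4l, mt-Nd5, mt-Nd6 and Sdhd. A member called lower in males below and not listed here for its genotype lost that call. Relative to the median of all genes the nuclear median was -0.28 in both male genotypes under either scaling, and the mitochondrial median -0.42 with TMM and -0.41 with library totals in CT males, and -0.43 and -0.44 in KO males. Fold changes below are on the TMM scale unless said otherwise.

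**Figure D2:**
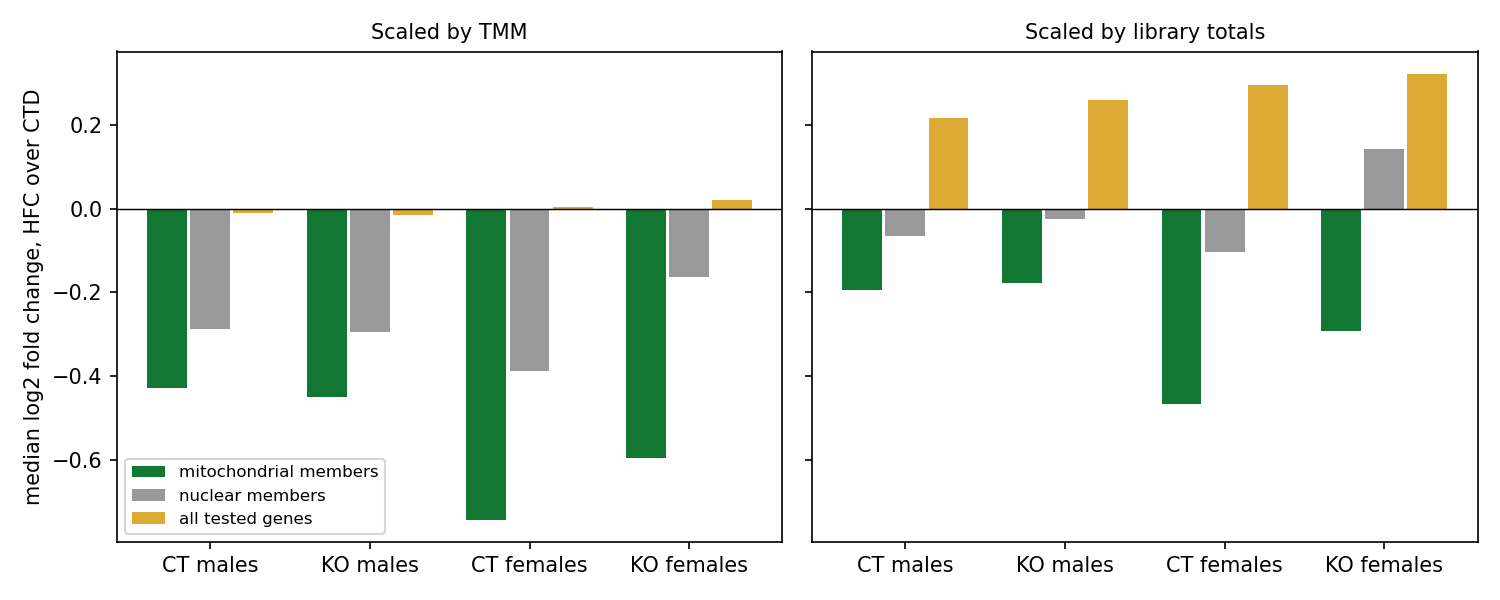
Median log2 fold change, HFC against CTD, of the mitochondrial members, the nuclear members and all tested genes, with TMM factors and with library totals, in the 4 diet comparisons. The mitochondrial bars lie below the nuclear ones in each comparison under both scalings, and the nuclear median of female KO mice changes sign, from -0.16 with TMM to 0.14 with library totals.

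Complex I takes electrons from NADH, and its 36 nuclear subunits include 7 core subunits that carry its chemistry. Of the 36, 23 fell in male CT mice and 24 in male KO mice, with medians of -0.26 and -0.27. Ndufs1, the largest iron-sulfur subunit, measured 121, 111, 111 and 103 CPM in male CT mice on CTD against 90.8, 81.4, 80.9 and 82.2 CPM on HFC. All 4 HFC values lay below all CTD values (log2 fold change -0.41, SE 0.07, adjusted p = 0.00105, edgeR). Ndufs1 means in male KO mice were 104 ± 5.54 and 81.6 ± 6.97 CPM (SD of 4 animals, log2 fold change -0.35, SE 0.07, adjusted p = 0.00174, edgeR). Ndufv2, a core subunit of the NADH-oxidising arm, had means of 72.1 ± 1.77 and 55.0 ± 3.29 CPM in male CT mice (log2 fold change -0.39, SE 0.07, adjusted p = 0.000815, edgeR), and Ndufs3 and Ndufa10 fell in male KO mice by 0.32 and 0.32 on the log2 scale (adjusted p = 0.000804 and 0.00125, edgeR). Of the core subunits 5 of 7 fell in CT and 6 of 7 in KO males, and of the 29 accessory subunits 18 fell in each.

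Complex II oxidises succinate and also serves in the tricarboxylic acid cycle. It showed the lowest median among the nuclear complexes in males, -0.44 in CT and -0.39 in KO mice, with 3 of 4 subunits lower in each. Sdhd, a membrane anchor, measured 119.6, 120.1, 119 and 124 CPM in male CT mice on CTD against 84.1, 87.4, 81.0 and 88.9 CPM on HFC. The KO males had 118, 119, 127 and 128 CPM on CTD against 71.1, 94.5, 88.4 and 81.0 CPM on HFC. The groups were apart in both genotypes (log2 fold change -0.50, SE 0.08, adjusted p = 0.000363 in CT and log2 fold change -0.55, SE 0.08, adjusted p = 4.07e-05 in KO males, edgeR), and the call held with library totals in both (log2 fold change -0.27 and -0.28, adjusted p = 0.00939 and 0.00518, edgeR).

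Sdhb, the iron-sulfur subunit of complex II, measured 138, 136, 131 and 137 CPM on CTD against 97.1, 96.3, 93.0 and 105 CPM on HFC in male CT mice, again without overlap (log2 fold change -0.47, SE 0.08, adjusted p = 0.000562, edgeR). Sdhb means in male KO mice were 126 ± 5.14 and 96.6 ± 11.5 CPM (log2 fold change -0.39, SE 0.08, adjusted p = 0.00112, edgeR), a call lost with library totals (log2 fold change -0.12, adjusted p = 0.217, edgeR). Sdha, the flavoprotein that binds succinate, fell by 0.41 in CT and 0.39 in KO males on the log2 scale (adjusted p = 0.00313 and 0.00238, edgeR). The remaining anchor, Sdhc, named after its values were seen, did not pass in either (adjusted p = 0.0969 and 0.213, edgeR).

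Complex III hands electrons to cytochrome c. Of its 8 nuclear subunits 6 fell in CT and all 8 in KO males, with medians of -0.33 and -0.35. Uqcrc1, a core protein of the complex, measured 185, 174, 182 and 181 CPM in male KO mice on CTD against 126, 151, 147 and 132 CPM on HFC. The diets did not overlap (log2 fold change -0.38, SE 0.07, adjusted p = 0.00115, edgeR). Uqcrc2, its partner core protein, fell by 0.38 in CT and 0.36 in KO males on the log2 scale (adjusted p = 0.00207 and 0.00158, edgeR), and Uqcrb, which binds ubiquinone, fell by 0.46 in CT males (adjusted p = 0.00189, edgeR). None of these complex III calls remained with library totals (adjusted p of 0.0521 or more, edgeR).

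Complex IV, cytochrome c oxidase, had 9 of 12 nuclear subunits lower in CT and 10 of 12 lower in KO males, with medians of -0.32 and -0.30. Cox7b measured 115 ± 7.65 CPM on CTD and 83.6 ± 3.79 CPM on HFC in male CT mice (SD of 4 animals, log2 fold change -0.46, SE 0.07, adjusted p = 0.000414, edgeR). Cox5b, a zinc-binding subunit, had means of 120.0 ± 13.0 and 84.7 ± 4.91 CPM in the same mice (log2 fold change -0.50, SE 0.08, adjusted p = 0.000648, edgeR). Cox6c in male KO mice had means of 102 ± 8.53 and 73.7 ± 8.68 CPM (log2 fold change -0.47, SE 0.09, adjusted p = 0.000764, edgeR). Cox7a1, the only muscle form among the members, was near the minimum in every group, with means of 1.10 ± 0.568 and 1.23 ± 0.105 CPM in male CT mice and 2.69 ± 0.182 and 2.58 ± 0.869 CPM in female CT mice on CTD and HFC (SD, n = 4 males and 3 females), and was not called.

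Complex V, the ATP synthase, had 11 of 15 nuclear subunits lower in CT and 12 lower in KO males, with medians of -0.34 and -0.32. Atp5a1, which with Atp5b forms the catalytic head, measured 835, 819, 782 and 917 CPM in male CT mice on CTD against 640.4, 672, 588 and 635 CPM on HFC, without overlap (log2 fold change -0.40, SE 0.09, adjusted p = 0.00443, edgeR), a call lost with library totals (log2 fold change -0.18, adjusted p = 0.116, edgeR). Atp5o, which links the head to the stalk, measured 116, 112, 103 and 125 CPM on CTD against 83.5, 82.8, 84.4 and 78.3 CPM on HFC (log2 fold change -0.47, SE 0.08, adjusted p = 0.000775, edgeR). Atp5k, a small membrane subunit found in dimers of the enzyme, measured 25.7, 23.1, 19.2 and 26.7 CPM and 15.2, 15.1, 14.8 and 15.2 CPM (log2 fold change -0.65, SE 0.13, adjusted p = 0.00180, edgeR), the lowest fold change of a called nuclear member in CT males. Every HFC value of Atp5o and Atp5k in these mice lay below every CTD value.

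The 11 other proteins matched by the symbols showed a smaller median, -0.15 in CT and -0.13 in KO males, with 3 and 4 lower. Ndufaf4 and Ndufaf1, which help assemble complex I, fell by 0.39 and 0.33 on the log2 scale in CT males (adjusted p = 0.00607 and 0.0111, edgeR), and Ndufaf6 fell by 0.52 in KO males (adjusted p = 0.00292, edgeR). Atp5s was the only member that rose in male KO mice, from 3.28, 3.14, 2.93 and 2.90 CPM on CTD to 4.65, 4.51, 4.22 and 5.05 CPM on HFC, with all HFC values above all CTD values (log2 fold change 0.59, SE 0.16, adjusted p = 0.00927, edgeR). In male CT mice it measured 3.71, 3.78, 3.54 and 2.43 and 4.57, 3.45, 4.71 and 5.27 CPM, where the groups overlapped and the test was not passed (adjusted p = 0.0665, edgeR). Its namesake Atp5sl fell by 0.36 in CT and 0.53 in KO males (adjusted p = 0.0349 and 0.00218, edgeR).

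Of the mitochondrial messages, 11 of 13 fell in males of each genotype and 0 rose, with medians of -0.43 in CT and -0.45 in KO males. mt-Nd2 and mt-Co2 were the exceptions in both. mt-Nd3, a membrane subunit of complex I, had the lowest fold change of all 99 members in both male genotypes. It measured 1656, 1798, 1516 and 1184 CPM in male CT mice on CTD against 1009, 1075, 625.2 and 952 CPM on HFC. The KO males had 1427, 1581, 1589.8 and 1517 CPM on CTD against 806, 805, 1014 and 724 CPM on HFC. Both pairs of groups were apart (log2 fold change -0.75, SE 0.16, adjusted p = 0.00334 in CT and log2 fold change -0.87, SE 0.16, adjusted p = 0.000613 in KO males, edgeR), also with library totals (log2 fold change -0.52 and -0.59, adjusted p = 0.00933 and 0.00275, edgeR).

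mt-Nd4, a membrane subunit of complex I (chrM:10167-11544, plus strand), measured 15114, 14908, 15377 and 11603 CPM on CTD against 11333, 11125, 9673 and 10229 CPM on HFC in male CT mice. KO males measured 13537, 14586, 14455 and 15469 and 10212, 10537, 10301 and 10106 CPM. Animal 320 was the lowest CTD mouse among CT males and still stood above every HFC mouse (log2 fold change -0.43, SE 0.11, adjusted p = 0.0105 in CT and log2 fold change -0.50, SE 0.11, adjusted p = 0.00245 in KO males, edgeR).

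mt-Cytb, the only mitochondrial subunit of complex III (chrM:14145-15288, plus strand), measured 14824, 14261, 14827 and 11395 CPM on CTD against 11029, 10354, 9065 and 9954 CPM on HFC in male CT mice, without overlap (log2 fold change -0.45, SE 0.11, adjusted p = 0.00850, edgeR). In male KO mice the means were 14148 ± 886 and 9710.1 ± 479.7 CPM (SD of 4 animals, log2 fold change -0.54, SE 0.11, adjusted p = 0.00148, edgeR). mt-Atp6, the proton channel subunit of ATP synthase (chrM:7927-8607, plus strand), measured 15769, 15462, 16054 and 12551 CPM on CTD against 12414, 12819.8, 10839 and 10958 CPM on HFC in male CT mice. Animal 320 lay below the highest HFC mouse, and the call (log2 fold change -0.35, SE 0.11, adjusted p = 0.0315, edgeR) was lost when CTD animal 301, 305 or 313 or HFC animal 418 or 543 was left out, with adjusted p up to 0.0973. Among KO males mt-Atp6 fell by 0.45 on the log2 scale (adjusted p = 0.00522, edgeR) and the diets did not overlap.

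mt-Co3, a core subunit of complex IV, measured 11455, 11093, 10506 and 8966 CPM in male CT mice on CTD against 8695, 8697, 7813 and 7996 CPM on HFC (log2 fold change -0.34, SE 0.10, adjusted p = 0.0278, edgeR). mt-Nd1, a complex I subunit near the ubiquinone site, had means of 9562 ± 1314 and 7485 ± 553 CPM in the same mice (SD of 4 animals, log2 fold change -0.35, SE 0.11, adjusted p = 0.0310, edgeR). The call of mt-Co3 was lost without CTD animal 301, 305 or 313 or HFC animal 418 or 543 (adjusted p up to 0.0884, edgeR), and that of mt-Nd1 without CTD animal 305 or 313 or HFC animal 417, 418 or 543 (adjusted p up to 0.11, edgeR). mt-Atp8, the small membrane subunit of ATP synthase whose end overlaps mt-Atp6, had means of 1798 ± 116 and 1301 ± 178 CPM in CT males (log2 fold change -0.47, SE 0.10, adjusted p = 0.00497, edgeR) and of 1689 ± 73.0 and 1238 ± 104 CPM in KO males (log2 fold change -0.45, SE 0.10, adjusted p = 0.00392, edgeR).

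mt-Co2, the subunit of complex IV that takes electrons from cytochrome c, measured 7012, 7187, 8757 and 9883 CPM in male KO mice on CTD against 7558, 6850.3, 6112 and 4239.6 CPM on HFC, which overlapped and did not pass (adjusted p = 0.0875, edgeR). mt-Nd2, a membrane subunit of complex I, measured 12227, 12163, 13001 and 8449 CPM in male CT mice on CTD against 11143, 11059, 9717 and 9803 CPM on HFC, which overlapped (adjusted p = 0.482, edgeR). KO males measured 11396, 11909.9, 12421 and 12160.4 CPM and 9028, 9982, 9456 and 10734 CPM, apart but not called (adjusted p = 0.0953, edgeR). The direction of mt-Nd2 changed with library totals in CT males (log2 fold change 0.10) and was -0.01 in KO males.

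**Figure D3:**
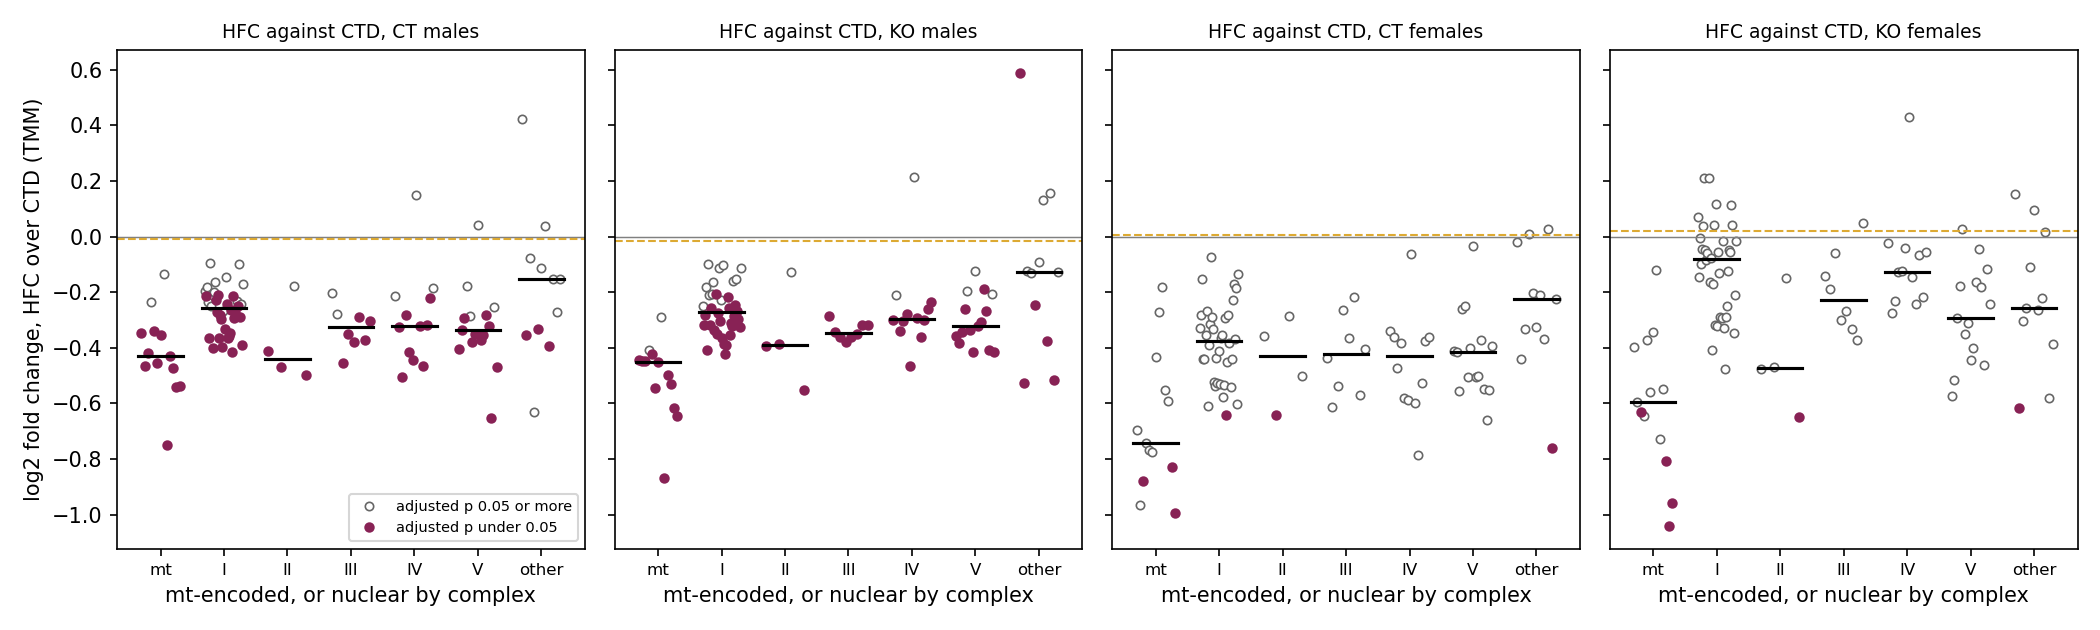
Log2 fold change of each member, HFC against CTD, in the 4 comparisons, with members arranged as mitochondrial genes, nuclear subunits of complexes I to V and other matched proteins. Filled dots passed edgeR's test at adjusted p under 0.05, black lines are group medians and the dashed line is the median of all tested genes. In males most filled dots lie between -0.2 and -0.6, and the nuclear median of female KO mice, -0.16 on this TMM scale, is 0.14 with library totals.

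In females fewer members passed the test. In female CT mice 3 nuclear and 3 mitochondrial members fell and 0 rose, against 1.26% and 0.936% of 13999 genes. In female KO mice 2 nuclear and 4 mitochondrial members fell and 0 rose, against 4.65% and 3.94% of all genes. The mitochondrial medians were -0.74 in CT and -0.60 in KO females. The nuclear median was -0.39 in CT females, and in KO females it was -0.16 with TMM but 0.14 with library totals, where the median of all genes stood at 0.32. With TMM it was -0.28 without KO CTD animal 309 and -0.04 without KO CTD animal 307. Relative to all genes the nuclear median of KO females was -0.19 with TMM and -0.18 with library totals, with 73 of 86 nuclear members below the median of all genes under both. In CT females 84 nuclear members were negative with TMM and 66 with library totals, and in KO females 72 and 21, while with TMM 49.5% and 47.6% of all genes were negative. With library totals mt-Co1 and mt-Nd6 were called lower in CT females and mt-Nd4l, mt-Nd5 and mt-Nd6 in KO females, where Ndufa8, a complex I subunit named after its values were seen, was called higher.

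Of the 99 members, only mt-Co1, mt-Nd5 and mt-Nd6 fell in all 4 diet comparisons on the TMM scale. With library totals only mt-Nd6 did. There mt-Co1 was not called in CT males, KO males or KO females (adjusted p = 0.0720, 0.0795 and 0.110, edgeR), nor mt-Nd5 in CT females (adjusted p = 0.0698, edgeR). mt-Co1, the catalytic subunit of complex IV (chrM:5328-6872, plus strand), measured 36128, 31934 and 39990.0 CPM in female CT mice on CTD against 18408, 20336 and 20062 CPM on HFC. In female KO mice it measured 33153, 27522 and 32799 CPM on CTD against 19046, 19628 and 21621 CPM on HFC. The diets did not overlap in either (log2 fold change -0.88, SE 0.16, adjusted p = 0.0172 in CT and log2 fold change -0.63, SE 0.16, adjusted p = 0.0303 in KO females, edgeR). These female calls were lost in 3 of 12 fits in CT and 4 of 12 in KO mice with 1 animal left out. In males mt-Co1 measured 32195, 32528, 33228 and 28159 CPM on CTD against 24756, 23649, 23159 and 22795 CPM on HFC in CT mice, also without overlap (log2 fold change -0.42, SE 0.10, adjusted p = 0.00768, edgeR), and fell by 0.45 in KO mice (adjusted p = 0.00300, edgeR).

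mt-Nd5, a proton-pumping subunit of complex I (chrM:11742-13565, plus strand), measured 4935, 6904 and 6751 CPM in female KO mice on CTD against 2669, 3289 and 3079.8 CPM on HFC. This was the lowest fold change of any member in any comparison (log2 fold change -1.04, SE 0.19, adjusted p = 0.00647, edgeR). In female CT mice it measured 5322, 4616 and 6686 and 2784, 3321 and 3249 CPM, again apart (log2 fold change -0.83, SE 0.19, adjusted p = 0.0431, edgeR). That call was lost in 9 of 12 fits with 1 animal left out. In males mt-Nd5 fell by 0.54 in CT and 0.61 in KO mice on the log2 scale (adjusted p = 0.00621 and 0.00153, edgeR).

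mt-Nd6 is the one protein message of the other strand (chrM:13552-14070, minus strand). It measured 6051, 4292 and 5056 CPM in female CT mice on CTD against 2222, 2276 and 3242 CPM on HFC. In female KO mice it measured 4459, 4559.7 and 5337 CPM and 2554, 2331 and 2497 CPM. No HFC value reached a CTD value in either (log2 fold change -0.99, SE 0.19, adjusted p = 0.0197 in CT and log2 fold change -0.96, SE 0.19, adjusted p = 0.00898 in KO females, edgeR). In males mt-Nd6 fell by 0.54 in CT and 0.64 in KO mice (adjusted p = 0.00817 and 0.00142, edgeR), with overlapping groups in CT mice, where CTD animal 320 had 1919 CPM against a highest HFC value of 2078 CPM. Whether counting used strand is not given, so reads over mt-Nd6 and its antisense transcript cannot be told apart. mt-Nd4l, a small complex I subunit, fell in female KO mice by 0.81 (adjusted p = 0.0188, edgeR), and in CT and KO males by 0.47 and 0.53 (adjusted p = 0.00221 and 0.000478, edgeR).

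The nuclear members called in females, 3 of 86 in CT and 2 of 86 in KO mice, came from complexes I and II and from the other proteins. Of all genes 1.26% and 4.65% fell there, so the count in KO females was below the share of all genes. Ndufc2, an accessory subunit of complex I, measured 42.9, 45.2 and 43.2 CPM in female CT mice on CTD against 25.6, 26.0 and 32.7 CPM on HFC (log2 fold change -0.64, SE 0.13, adjusted p = 0.0230, edgeR). Sdhb measured 244, 219 and 193 CPM on CTD against 121, 135 and 164 CPM on HFC in the same mice (log2 fold change -0.64, SE 0.15, adjusted p = 0.0457, edgeR). Ndufaf6 measured 14.7, 13.7 and 13.2 and 6.41, 8.52 and 9.66 CPM (log2 fold change -0.76, SE 0.18, adjusted p = 0.0456, edgeR). In all 3 the HFC values lay below the CTD values. In female KO mice Sdhd measured 142, 117 and 121 CPM on CTD against 55.4, 96.6 and 90.6 CPM on HFC (log2 fold change -0.65, SE 0.19, adjusted p = 0.0469, edgeR), with animal 412 far below its group, and Atp5sl measured 62.6, 45.6 and 53.9 and 28.9, 38.5 and 38.4 CPM (log2 fold change -0.62, SE 0.18, adjusted p = 0.0483, edgeR). No nuclear subunit of complexes III, IV or V passed in females, with medians of -0.42, -0.43 and -0.41 in CT and -0.23, -0.13 and -0.29 in KO females on the TMM scale. Complexes I and II had nuclear medians of -0.37 and -0.43 in CT and -0.08 and -0.47 in KO females.

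The female counts depended on single animals. Of 6 members called in female CT mice, 0 were left when CT CTD animal 306 or CT HFC animal 420 or 510 was left out, 2 without CT CTD animal 308, 3 without KO CTD animal 317 or KO HFC animal 419, and 21, 14 and 12 without CT HFC animal 512, KO HFC animal 412 or KO HFC animal 413. Of 6 in female KO mice, 2 were left without KO CTD animal 317 or KO HFC animal 412 or 419, 3 without KO CTD animal 307 or 309, and 10 were called without KO HFC animal 413, while mt-Nd5 and mt-Nd6 were called in KO females whichever animal was left out.

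Taking both sexes and genotypes, 82 of the 99 members had a negative fold change in all 4 diet comparisons on the TMM scale. The share of all genes negative in all 4 was not taken. Within single comparisons 95 did so in CT males (51.6% of all genes), 95 in KO males (52.2%), 97 in CT females (49.5%) and 85 in KO females (47.6%). With library totals only 12 mitochondrial and 21 nuclear members were negative in KO females, so the count of 82 rests on the scaling. In males 21 nuclear members fell in neither genotype. HFC values lay wholly below CTD values for 69 members in CT males (10.2% of all genes), 65 in KO males (14.7%), 40 in CT females (14.1%) and 32 in KO females (14.1%). The plot of the 2 male genotypes places most members near the diagonal. Farthest from it stood Ndufa4l2, with means of 1.82 ± 0.294 and 1.18 ± 0.176 CPM in CT and 1.42 ± 0.299 and 1.29 ± 0.287 CPM in KO males on CTD and HFC (SD, n = 4), which was called in neither.

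**Figure D4:**
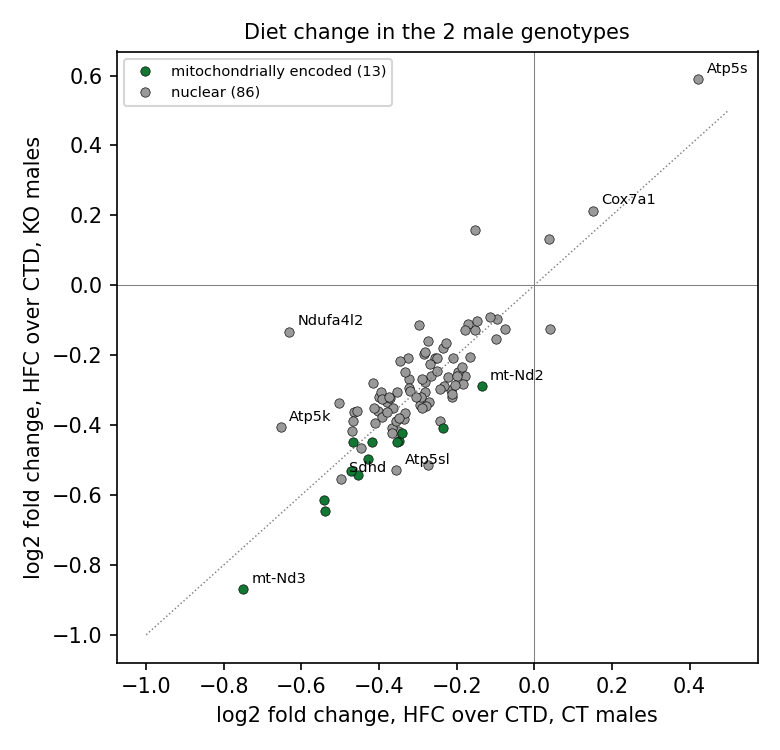
Log2 fold change of each member, HFC against CTD, in male CT mice (horizontal axis) and male KO mice (vertical axis), on the TMM scale. mt-Nd3 lies farthest towards the lower left at -0.75 and -0.87, and Atp5s lies at the upper right at 0.42 and 0.59, where it was called in KO males alone.

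No difference between genotypes was detected for any member. In KO against CT mice, on each diet and in each sex, edgeR called 0 of 99 members and 0 of all tested genes (0%), and the same held for the interaction of diet and genotype. At an unadjusted p under 0.05, 6 nuclear members stood in female mice on CTD and 0 in the other comparisons. By DESeq2 0 members were called, while over all genes DESeq2 called 11 in male mice on CTD, 3 in male mice on HFC, 1 in female mice on CTD, 0 in female mice on HFC, and 5 and 0 for the interaction in males and females. The unadjusted p was under 0.05 for 949, 653, 446 and 311 of all genes in the same 4 comparisons by edgeR, and for 852 and 546 in the interactions.

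In female mice on CTD the nuclear median was -0.26, with 80 of 86 members lower in KO mice, against 47.7% of all genes. It was -0.38 without KO CTD animal 307 and -0.16 without KO CTD animal 309. The smallest unadjusted p belonged to complex I subunit Ndufv2, which measured 152, 121 and 126 CPM in CT and 113, 92.9 and 102 CPM in KO mice (log2 fold change -0.38, SE 0.15, adjusted p = 0.999, edgeR), followed by Ndufb11 (-0.40, SE 0.17) and Atp5c1 (-0.31, SE 0.13) at the same adjusted p. All 3 KO animals lay below all CT animals for Ndufv2. The diet by genotype interaction in females had a nuclear median of 0.24, with 71 of 86 members positive (49.8% of all genes were negative), and it shares those CTD animals. That median ranged from 0.12 without KO CTD animal 309 to 0.41 without CT HFC animal 512, and the mitochondrially encoded one from -0.01 to 0.35 with 1 animal left out. In the other genotype comparisons nuclear medians were -0.04 and -0.02 in males on CTD and HFC and -0.03 in females on HFC, and mitochondrial medians over all 4 genotype comparisons were between -0.21 and 0.03. On HFC the 2 genomes' medians changed sign with library totals in females, to 0.05 for nuclear and 0.02 for mitochondrial members, and in males the nuclear median became 0.02. In females on HFC the nuclear median also changed sign with single animals, from -0.10 without CT HFC animal 420 to 0.14 without CT HFC animal 512, and the mitochondrially encoded median ranged from -0.17 to 0.16.

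The members with the smallest unadjusted p in the remaining comparisons did not approach the threshold. They were Ndufa4l2 (-0.36), Ndufc1 (-0.12) and Atp5k (-0.19) in males on CTD, Ndufb2 (0.15), Uqcrc1 (-0.12) and Atp5g1 (-0.14) in males on HFC, and Atp5sl (-0.29), Uqcrfs1 (-0.21) and Sdhd (-0.23) in females on HFC, as log2 fold changes of KO against CT. For the interaction they were Ndufa4l2 (0.50), Ndufb2 (0.18) and Ndufaf6 (-0.24) in males and Ndufs4 (0.42), Cox7b (0.54) and Ndufb2 (0.48) in females. In females on HFC, with 1 animal left out, Atp5sl ranged from -0.38 to -0.11, Uqcrfs1 from -0.27 to -0.10 and Sdhd from -0.38 to -0.02. For all of these members the adjusted p was 0.812 or more in edgeR's test.

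Within the mitochondrial messages the composition differed between diets, a comparison that needs no scaling between libraries. mt-Nd2 took 9.07, 8.94, 9.26 and 7.71% of mitochondrial counts in male CT mice on CTD and 10.4, 10.8, 10.4 and 10.2% on HFC. The KO males had 9.10, 8.94, 9.12 and 8.53% and 9.38, 9.77, 9.65 and 11.5%. In female CT mice the shares were 7.08, 6.60 and 8.40% and 9.65, 9.84 and 10.1%, and in female KO mice 6.97, 7.19 and 7.98% and 10.1, 9.14 and 9.87%. In all 4 comparisons every HFC mouse lay above every CTD mouse.

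mt-Nd3 went the other way in males. It took 1.18 ± 0.119% of mitochondrial counts in CT mice on CTD and 0.911 ± 0.169% on HFC, and 1.14 ± 0.0541% and 0.859 ± 0.121% in KO mice (SD, n = 4), without overlap in either. mt-Cytb also had a lower share on HFC without overlap in both male genotypes, with means of 10.6% and 10.1% in CT and 10.5% and 9.96% in KO mice. In females mt-Nd1 had the higher share on HFC (7.40% and 8.91% in CT, 7.53% and 8.55% in KO mice) and mt-Nd6 the lower one (3.46% and 2.83%, 3.75% and 2.75%), without overlap in either genotype. The other mitochondrial messages overlapped between the diets in at least 1 genotype of each sex. Shares within 1 sum move together, so a higher share of one message shows unequal change and not that another changed by itself.

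**Figure D5:**
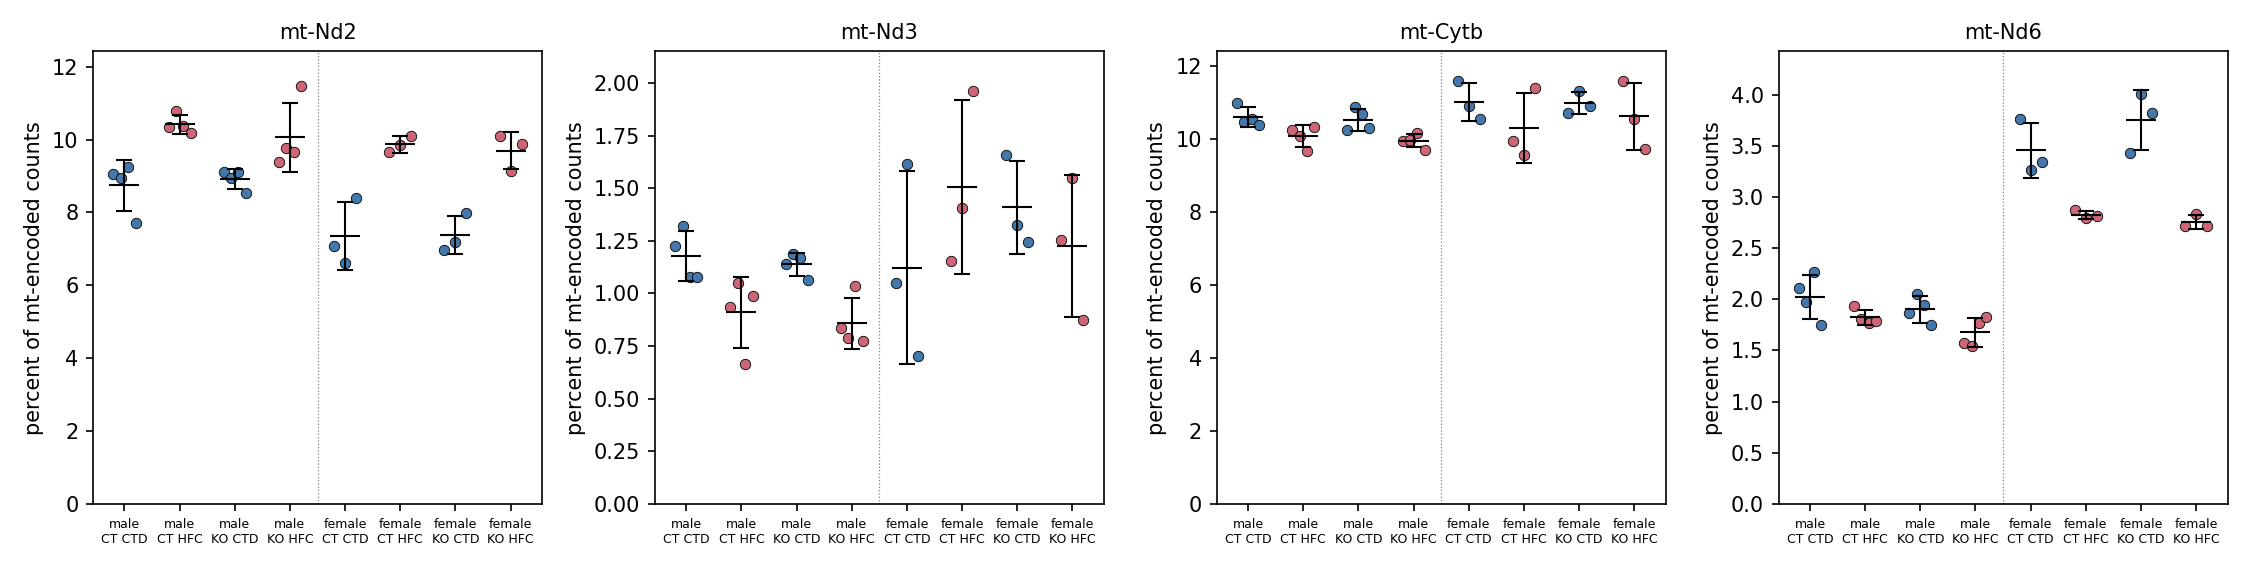
Percent of all mitochondrial counts taken by mt-Nd2, mt-Nd3, mt-Cytb and mt-Nd6 in each group, with axes starting at 0. Dots are animals, bars the mean with the SD, blue is CTD and red is HFC. mt-Nd2 is higher on HFC in all 4 pairs of groups, from 7.36% to 9.87% in female CT mice at the widest.

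Genes around the respiratory chain were read from lists of known members, which were not tested as sets. Their counts stand against 9.4%, 13.6%, 1.26% and 4.65% of all tested genes that fell in CT males, KO males, CT females and KO females, and against 10.6%, 15.5%, 0.936% and 3.94% that rose. Of the 40 and 43 calls in CT and KO males that the naming rule picked among members and lists, 17 and 26 were lost with library totals. The electron carriers and subunits outside the symbol rule numbered 25 tested genes, of which 10 fell and 1 rose in CT males, 15 fell and 3 rose in KO males, and 0 passed in females. Cyc1, the cytochrome c1 subunit of complex III, fell by 0.35 and 0.44 on the log2 scale in CT and KO males (adjusted p = 0.00727 and 0.000831, edgeR), calls lost with library totals (adjusted p = 0.326 and 0.167). Cycs, cytochrome c itself, measured 87.0, 88.8, 86.4 and 73.7 CPM on CTD against 68.8, 58.7, 56.0 and 59.7 CPM on HFC in CT males (log2 fold change -0.47, SE 0.08, adjusted p = 0.000713, edgeR). Etfdh, which feeds electrons of fatty acid oxidation to ubiquinone, fell by 0.45 in KO males (adjusted p = 0.000934, edgeR, and 0.0800 with library totals). Higher on HFC were Ucp2, an inner membrane carrier abundant in macrophages, which rose by 0.59 in CT and 1.05 in KO males (adjusted p = 0.0268 and 0.000419, edgeR), and Slc25a4, an ADP/ATP carrier of muscle and heart, which rose by 0.90 in KO males (adjusted p = 0.000515, edgeR). The CT call of Ucp2 was lost without CTD animal 301 or 305 or HFC animal 418 or 543 (adjusted p up to 0.0784, edgeR), and its fold change fell as low as 0.38.

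Of 18 tested genes of the tricarboxylic acid cycle, 12 fell in CT males, 13 in KO males, 1 in CT females and 4 in KO females, with 0 higher. Their medians were -0.28, -0.30, -0.26 and -0.20. Fh1, fumarate hydratase, which acts next after complex II, measured 154 ± 29.1 CPM on CTD and 87.6 ± 12.5 CPM on HFC in CT males (SD, n = 4). It fell in all 4 comparisons, by 0.81, 0.80, 0.86 and 0.79 on the log2 scale (adjusted p = 0.000562, 0.000257, 0.0230 and 0.0145, edgeR). The female calls of Fh1 were lost without CT CTD animal 306 or CT HFC animal 420 or 510 in CT mice and without KO CTD animal 307 or KO HFC animal 419 in KO mice (adjusted p up to 0.131 and 0.0665, edgeR). Dlst, a subunit of the oxoglutarate dehydrogenase complex, fell by 0.44 in CT males, 0.46 in KO males and 0.62 in KO females (adjusted p = 0.000648, 0.000163 and 0.0115, edgeR).

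Among 41 regulators of mitochondrial biogenesis and mitochondrial gene expression, 9 fell in CT males, 15 in KO males, 1 in CT females and 5 in KO females, with 0 higher. Hsd17b10, a subunit of mitochondrial RNase P, which cuts the long precursors, fell in all 4 comparisons, by 0.72, 0.61, 0.81 and 0.85 (adjusted p = 0.00283, 0.00525, 0.0393 and 0.0130, edgeR). Its female calls were lost without CT CTD animal 306 or 308, CT HFC animal 420 or 510 or KO CTD animal 317 in CT mice, and without KO CTD animal 307 or KO HFC animal 419 in KO mice (adjusted p up to 0.190 and 0.0635, edgeR). Lrpprc, which stabilises mitochondrial messages, fell by 0.42 in KO males (adjusted p = 0.000285, edgeR, and 0.0827 with library totals). Tfam, the packaging protein and transcription factor of mitochondrial DNA, measured 42.3, 35.3 and 42.1 CPM in KO females on CTD and 20.5, 31.6 and 29.9 CPM on HFC (log2 fold change -0.55, SE 0.16, adjusted p = 0.0472, edgeR), and fell by 0.29 in KO males (adjusted p = 0.00754, edgeR). The female call of Tfam was lost in 11 of 12 fits with 1 animal left out (adjusted p up to 0.146, edgeR), and with library totals neither call remained (adjusted p = 0.230 in KO females and 0.880 in KO males). Nrf1, whose motif stood in the promoters above, had means of 9.04 ± 0.319 and 9.58 ± 0.528 CPM in CT males and was not called in any diet comparison. Ppargc1a, a coactivator of biogenesis, had means of 19.7 ± 1.203 and 15.6 ± 3.002 CPM in CT males and 15.9 ± 2.74 and 11.2 ± 1.30 CPM in KO females on CTD and HFC (SD) and was not called either.

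Of 48 tested assembly factors outside the symbol rule, 9 fell and 1 rose in CT males, 12 fell and 2 rose in KO males, and 1 fell in each female genotype. Higd1a, a complex IV assembly and hypoxia factor, fell by 0.63 in CT males, 0.55 in KO males and 0.64 in CT females (adjusted p = 0.000759, 0.00110 and 0.0431, edgeR), where the female call was lost in 7 of 12 fits with 1 animal left out and with library totals (adjusted p = 0.0924), and Cox19, a copper-handling factor of complex IV, rose by 0.42 and 0.43 in CT and KO males (adjusted p = 0.00727 and 0.00367, edgeR). Of 77 proteins of the mitochondrial ribosome, which translates the 13 messages, 12 fell and 1 rose in CT males and 17 fell and 0 rose in KO males, with medians of -0.13 and -0.14. Among them Mrps5 fell by 0.38 and 0.41 in CT and KO males (adjusted p = 0.00171 and 0.000502, edgeR, and 0.125 and 0.148 with library totals), and Mrps6 rose by 0.56 in CT males (adjusted p = 0.00651, edgeR). In females 1 ribosomal protein fell in each genotype, Mrpl15 in both, and 1 rose in KO mice, Mrps6, counts near or below the shares of all genes. Leaving out 1 animal ended the call of Mrpl15 in 5 of 12 fits in CT and 3 of 12 in KO females, and that of Mrps6 in 10 of 12.

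Markers of other cell types moved with the diet. Of 12 macrophage markers, 11 rose in CT males and 12 in KO males, and 0 passed in females. All 12 were nevertheless positive in both female genotypes, with 1 in CT and 3 in KO females at an unadjusted p under 0.05. Macrophage medians were 1.09 in CT males, 1.89 in KO males, 0.82 in CT females and 1.07 in KO females. Summed levels here and below are deposited CPM, scaled by library totals, whereas the calls and medians are on the TMM scale. The macrophage sum was 377 to 617 CPM in CT males on CTD and 898 to 1510 CPM on HFC, and 317 to 383 and 1169 to 1676 CPM in KO males. In CT females it was 282 to 966 and 764 to 1367 CPM, and in KO females 311 to 878 and 682 to 2278 CPM, with overlap in both. Of 8 lymphocyte markers 5 rose in CT and 8 in KO males. Of 12 hepatocyte markers 3, 6, 1 and 5 fell in CT males, KO males, CT females and KO females, with medians of -0.30, -0.35, -0.47 and -0.48. The summed hepatocyte level was 85484.5 to 117686 CPM on CTD and 91436 to 107784 CPM on HFC in CT males, with overlap, and 155071 to 174779 CPM and 122219 to 139033 CPM in KO females, without. Of 10 endothelial markers 1 and 3 rose in CT and KO males, and of 8 stellate and 6 cholangiocyte markers 2 and 3 rose in KO males, with 0 of these called in females. The 1 of 10 endothelial markers in CT males is near the 10.6% of all genes that rose there, and 15.5% rose in KO males. In CT females all 10 endothelial markers were positive, with a median of 0.52 and 7 at an unadjusted p under 0.05, and in KO females 9 were, with a median of 0.34. Of 5 tested erythroid markers 1 rose in each female genotype, all 5 were positive in both, and their medians were 0.88 in CT and 1.03 in KO females, with 3 and 5 at an unadjusted p under 0.05. Of 2 tested exocrine pancreas markers 1 fell in each of the 4 diet comparisons. Skeletal muscle and fat markers summed to at most 0.790 and 1.03 CPM in any library. Between genotypes 0 of these markers were called. In males on CTD all 12 macrophage and all 10 endothelial markers were negative in KO against CT mice, with medians of -0.41 and -0.33. Of each, 7 had an unadjusted p under 0.05 by edgeR. In males on HFC all 12 macrophage markers were positive (median 0.39) and 9 endothelial markers negative (median -0.10). In females on CTD 11 macrophage and 6 endothelial markers were positive. The part of cell composition in the levels of the members was not tested.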

How the data were processed

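Total RNA of whole liver was sequenced on a DNBSEQ instrument, per the labels' protocols, 1 library per animal. The authors deposited raw counts per gene, 1 table per sex, and beside them CPM, counts scaled by library total. Recomputed from the counts, the deposited CPM equalled count over library total for 100.0% of values in both tables, within 0.0001. FastQC, edgeR and the build GRCm38 (mm10) are named per the submitters' processing notes. For aligner, counter, annotation and use of strand, nothing is stated in the protocols used here, so overlapping genes may share reads and levels between genes are given only per kilobase.

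Samples were grouped by the labels for sex, genotype and diet. Each sex was fitted by itself with edgeR 4.0.16 in R 4.3.3: low counts filtered with filterByExpr, TMM factors, 1 mean per group, robust quasi-likelihood test, Benjamini-Hochberg adjustment over all tested genes, calls at adjusted p under 0.05. TMM-scaled CPM are given per animal, fold changes are HFC against CTD or KO against CT, and the SE is the log2 fold change over the root of its F value. The steps were tested on simulated counts. P-values set a difference between groups against the spread between the animals sampled, estimated over the 4 groups of a sex.

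Named were every mitochondrial gene, of each nuclear class up to 2 called members per direction with the smallest adjusted p in each diet comparison, the 3 members with the smallest p per genotype comparison and interaction, the 3 nuclear members highest and lowest in CPM (for naming only), Cox7a1 as the muscle isoform, and outside the members Cyc1, Cycs, Ppargc1a, Nrf1 and Tfam with up to 2 called genes per direction from each list. The members and lists were chosen with earlier results of these data known. Alternatives were size factors of DESeq2, library totals, scaling without mitochondrial genes, no filter, DESeq2 1.42.0, limma 3.58.1 on log2 of deposited CPM plus 1, and each animal left out.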

Additional observations from a re-analysis of the deposited data

Results flagged for a closer look

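Of 196 values examined in groups of 4 males, 12 had 1 animal far from the other 3, where chance flags about 1 in 20 groups. CT CTD animal 320 stood low in mt-Atp6 (12551 CPM, the others 15462 to 16054), mt-Cytb (11395 CPM, the others 14261 to 14827) and mt-Nd4 (11603 CPM, the others 14908 to 15377). The same animal was low in the mitochondrial percentage of counts (10.9%, the others 12.1% to 12.3%) and high in Atp5g1, a subunit of the membrane ring of ATP synthase (143 CPM, the others 108 to 110.1). KO CTD animal 298 was low in mt-Co3 (9956 CPM, the others 11041 to 11121) and mt-Cytb (12825 CPM, the others 14487 to 14705). CT HFC animal 416 was high in Ndufs1 (90.8 CPM, the others 80.9 to 82.2), in Uqcrc2 (169.6 CPM, the others 151 to 151.9) and in the mitochondrial percentage of counts (11.5%, the others 10.4% to 10.5%). KO HFC animal 414 was low in Atp5k (11.2 CPM, the others 17.0 to 17.6), and CT CTD animal 305 was high in Ndufaf6 (8.72 CPM, the others 7.58 to 7.72). Female groups of 3 were not examined.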

How the results depend on the processing

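With TMM, 66, 72, 6 and 6 members were called lower in CT males, KO males, CT females and KO females, and 1 higher in KO males. Calls in either direction numbered 14, 9, 2 and 4 with library totals. Limma on the deposited CPM, which are themselves scaled by library totals, gave 14, 9 and 2 in the first 3. DESeq2 called 24 in CT females and 13 in KO females, all lower. Shares of all genes called under these settings are not given here. Of 148 values recomputed, 148 kept direction and call with size factors of DESeq2 and 148 with scaling without mitochondrial genes, 146 without the filter, and 88 with library totals. The difference of the mitochondrial and nuclear sums in KO females was -0.41 as a mean of log2 values against -0.28. Animals left out in turn gave 50 to 76 members in CT males, 53 to 76 in KO males, 0 to 21 in CT females and 2 to 10 in KO females. The direction of mt-Nd2 turned with library totals (0.000715 in CT females, 0.10 in CT males, 0.18 in KO females), with limma (0.00705, 0.11 and 0.18) and in KO females without single animals (-0.22 to 0.0127). That of mt-Nd3 in CT females turned with library totals (0.083), with limma (0.049) and without single animals (-0.69 to 0.066). The female table had 3 animals a group and a biological coefficient of variation of 0.199, against 4 and 0.161 in males, and the cause of these changes was not tested. No paired analysis was possible because each animal number appears once.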

Other observations

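The make-up of the mitochondrial counts differed between the male and female tables. In CT mice on CTD, mt-Nd4l took 1.35 ± 0.103% of mitochondrial counts in males (SD, n = 4) and 0.429 ± 0.0786% in females (SD, n = 3). mt-Nd5 took 6.88 ± 0.512% and 3.75 ± 0.592%, mt-Co3 8.08 ± 0.425% and 12.3 ± 0.623%, and mt-Nd6 2.02 ± 0.217% and 3.46 ± 0.267%. The sexes were deposited as separate tables, so sex and library set cannot be told apart, and no test was made.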
